A study of Mus musculus with 20 samples.

Results

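C2C12 cells given BMP4 at 100 ng/ml were set against every control array of the same study. The comparison holds 7 of the 20 arrays, chosen by their titles alone: 2 arrays of BMP4 at 100 ng/ml, 2 of untreated cells and 3 of cells given methanol. C2C12 is an established mouse myoblast line, that is, a line of muscle precursor cells, and all groups share that line, a medium with fetal bovine serum and the standard Affymetrix labelling. BMP4 was recombinant protein added to wells of a multiwell plate the morning after plating. The treatment protocol lists 10 and 300 ng/ml, and the dose of 100 ng/ml was taken from the titles. How long the cells were treated is not stated in the labels. The study set 3 small molecules beside BMP4, and methanol is the vehicle named beside them. The titles carry running numbers: run 1 (titles 10 to 17) holds untreated, methanol and BMP4 replicate 1, and run 2 (titles 18 to 29) holds untreated replicate 2, methanol replicates 2 and 3 and BMP4 replicate 2.

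BMP4 is a secreted ligand that joins type I and type II receptor kinases on the cell surface, which phosphorylate SMAD1, SMAD5 and SMAD9. These enter the nucleus with SMAD4 and switch on target genes, among them the Id genes, whose products bind and block the basic helix-loop-helix factors that drive muscle formation, and the inhibitory SMADs, which damp the same signal. C2C12 cells left to differentiate become muscle fibres, and under BMP ligands they take on traits of osteoblasts, the bone-forming cells.

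Values are log2 signals, 1 per gene and array, so that a difference of 1 is a factor of 2 in signal. Array medians lay between 4.96 and 5.05. Over all probe sets the 5 control arrays correlated at r = 0.979 to 0.991 with each other, the BMP4 pair at 0.985, and BMP4 arrays with controls at 0.971 to 0.982. A first principal component with 60.1% of the variance separated BMP4 from control arrays, with BMP4 replicate 1 at 52.2, BMP4 replicate 2 at 37.3 and the controls from -19.5 to -16.8. The second held 17.3% and put all 3 arrays of run 1 above all 4 of run 2. The labels name no separate cultures behind the arrays of a group, and p-values here therefore measure only how far these samples spread, which may be technical spread.

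The promoters of 4 genes that the results below turn on are shown first: Id3, a direct target of the BMP SMADs, Myog (myogenin, the factor that commits myoblasts to terminal differentiation), Chrng (the fetal acetylcholine receptor gamma subunit) and Acta1 (skeletal alpha-actin). Each is the RefSeq window of 300 bases, from 250 before to 50 after the gene's start, on GRCm38.p6, written 5′ to 3′ on the gene's strand. Capitals mark GTCTG, the SMAD motif, in Id3 and CANNTG, the E-box bound by MYOD1 and myogenin, in the other genes, on either strand. The windows are chr4:136143572-136143871 (plus strand) for Id3, chr1:134289754-134290053 (plus) for Myog, chr1:87205561-87205860 (plus) for Chrng and chr8:123894726-123895025 (minus) for Acta1.
Id3: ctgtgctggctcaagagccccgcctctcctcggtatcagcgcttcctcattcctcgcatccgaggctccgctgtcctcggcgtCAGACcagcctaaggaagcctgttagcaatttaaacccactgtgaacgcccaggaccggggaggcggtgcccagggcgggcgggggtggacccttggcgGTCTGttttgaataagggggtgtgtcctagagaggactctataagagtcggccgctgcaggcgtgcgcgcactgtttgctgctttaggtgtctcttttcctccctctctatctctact
Myog: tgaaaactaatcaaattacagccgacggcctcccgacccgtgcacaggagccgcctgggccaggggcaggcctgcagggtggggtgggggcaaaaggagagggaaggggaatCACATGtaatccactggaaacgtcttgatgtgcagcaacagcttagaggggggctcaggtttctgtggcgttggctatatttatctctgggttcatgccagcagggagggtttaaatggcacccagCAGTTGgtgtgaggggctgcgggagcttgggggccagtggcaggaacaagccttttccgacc
Chrng: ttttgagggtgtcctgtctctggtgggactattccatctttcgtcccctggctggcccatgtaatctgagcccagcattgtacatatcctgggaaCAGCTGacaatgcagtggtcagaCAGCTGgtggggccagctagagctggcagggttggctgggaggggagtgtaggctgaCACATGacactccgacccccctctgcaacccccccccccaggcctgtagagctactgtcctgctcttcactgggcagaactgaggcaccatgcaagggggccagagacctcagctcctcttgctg
Acta1: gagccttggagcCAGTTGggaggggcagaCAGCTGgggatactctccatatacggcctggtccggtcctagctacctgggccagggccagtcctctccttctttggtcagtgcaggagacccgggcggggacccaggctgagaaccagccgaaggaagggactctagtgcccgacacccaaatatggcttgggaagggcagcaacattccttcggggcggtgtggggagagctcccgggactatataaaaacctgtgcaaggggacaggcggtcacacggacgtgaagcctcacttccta
Id3 has GTCTG on its own strand 68 bases before the start and on the other strand 167 bases before it, and no GGCGCC, a second SMAD motif. The window of Smad6, the inhibitory SMAD gene described below, holds neither motif, and that of Sfrp2 holds GTCTG once. The Myog window holds CACATG and CAGTTG, the second of them 12 bases before the start. Chrng has the E-box CAGCTG at 155 and 132 bases before the start and CACATG at 75, and Acta1 has CAGTTG at 238 and CAGCTG at 221. These are matches of letters, not sites shown to be bound, and no match says only that the letters are not in this window.

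BMP4 at 100 ng/ml raised 1558 of the 22180 genes tested (7.02%) and lowered 1684 (7.59%), at an adjusted p under 0.05 in limma with Benjamini-Hochberg adjustment over all genes. The raised genes were led by Sfrp2, Fmod, Panx3, Sp7 and Prg4, which are genes of connective tissue, bone and joint, and the lowered ones by Myh3, Nefl, Casq2, R3hdml and Ankrd2, most of them genes of differentiating muscle. Medians over the raised and lowered genes were 0.60 and -0.61, against 0.01 over all genes. Differences of at least 1 were found for 292 raised and 400 lowered genes, of at least 2 for 55 and 111, and of at least 3 for 16 and 40. The counts were 704 raised and 675 lowered with only the untreated arrays as controls, and 1022 and 1079 without BMP4 replicate 1.

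Both BMP4 arrays lay above all 5 controls for 3211 genes (14.5%) and below all 5 for 3121 (14.1%), called or not. Among raised genes 1553 were so placed, and among lowered ones 1679. Each BMP4 array was also set against the controls of its own run. Every one of the 1558 raised and 1684 lowered genes had the same sign in both runs. Medians were 0.64 in run 1 and 0.58 in run 2 for raised genes, and -0.68 and -0.55 for lowered ones. The genes were called from these same arrays, and a gene whose 2 BMP4 arrays disagreed in sign could hardly be called. The shared signs and the places beyond all 5 controls among called genes therefore follow largely from the selection. They are no separate check of the calls. Methanol minus untreated gave 0 called genes (0%) in limma, with 714 genes at an unadjusted p under 0.05 where 1109 would fall by chance. That fit had no term for the run, and its spread included the gap between the 2 BMP4 arrays. The 0 therefore does not show that the 2 kinds of control were equal.

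The control arrays carried the markers of myoblasts. Myod1, the master regulator of the muscle lineage, ranged from 10.43 to 10.69 in the controls, Myf5 from 9.15 to 9.46, Cdh15 (M-cadherin) from 9.95 to 10.08 and Des (desmin) from 11.48 to 11.69. Markers of differentiating muscle lay well above the array medians as well, with Myog between 10.69 and 11.22, Mymk between 11.94 and 12.18 and Acta1 between 11.73 and 12.08. None of 9 endothelial and 9 macrophage markers was called: their list means ranged from 4.07 to 4.32 and from 4.46 to 4.59 in the controls and were 4.24 and 4.24, and 4.66 and 4.66, in the BMP4 arrays. Of 9 reference genes none was called, with a median of -0.01 and Gapdh at 0.00. RNA came from whole wells, so fewer cells of a type and less RNA per cell cannot be told apart.

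Counts of called members in the lists below stand beside the shares over all genes, without a test. Lists and members were chosen with earlier results of these data known, so an excess over these shares is no support for a pathway. Direct targets and feedback genes of the BMP pathway came first. Of 25 measured members, 12 rose and 2 fell, against 7.02% and 7.59% of all genes, with a median of 0.47. Smad6, an inhibitory SMAD that BMP signalling induces against itself, read 6.02 and 6.04 in untreated cells, 5.98, 5.81 and 5.94 with methanol, and 9.08 and 7.86 with BMP4. Both BMP4 arrays stood far above the controls, with replicate 1 the higher, and the difference was 2.51 (SE 0.24, adjusted p = 2.55e-05 in limma). Id1 read 7.02 and 7.29 untreated, 7.33, 7.20 and 7.37 with methanol, and 8.71 and 7.80 with BMP4, a difference of 1.01 (SE 0.19, limma adjusted p = 0.00366). Id3 read 8.90 and 8.84 untreated, 8.73, 8.79 and 8.91 with methanol, and 10.32 and 9.39 with BMP4, a difference of 1.02 (SE 0.18, limma adjusted p = 0.00245). For both Id genes the groups did not overlap, but BMP4 replicate 2 lay only a little above the highest control.

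The other rising members were Chrdl1 (3.0), a secreted BMP antagonist, the homeobox genes Dlx2 (1.80), Dlx5 (1.23) and Msx2 (0.55), the receptor SMAD gene Smad9 (1.55), Atoh8 (1.28), Smad7 (1.18), the second inhibitory SMAD, Bambi (1.14), a decoy receptor, and Zfp423 (0.78). Chrdl1 went from 4.29 to 4.60 in the controls to 7.57 and 7.25 with BMP4, and its rise was nearly the same in both runs (3.05 and 2.91). Dlx5 rested on replicate 1: it read 5.72 there and 4.08 in replicate 2, against 3.47 to 3.82 in the controls. Without BMP4 replicate 1, Dlx5 differed by 0.41 (limma adjusted p = 0.289), Msx2 by 0.41 (limma adjusted p = 0.262), Id1 by 0.56, Id3 by 0.56 and Smad7 by 0.56, and without BMP4 replicate 2 Dlx5 differed by 2.05 and Smad7 by 1.79. Dlx5 also lost its call without untreated replicate 2 (limma adjusted p = 0.058), and Id1 in the fit over all 20 arrays (limma adjusted p = 0.134). With only the untreated arrays as controls 7 members rose, and Dlx5, Msx2, Id3 and Smad7 were not called.

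Antagonists outside the cell did not move together. Grem1 (gremlin), which binds BMP ligands, fell by 1.11, from 8.36 to 8.74 in the controls to 7.26 and 7.64, and Fst (follistatin), which binds activins and BMPs, fell by 0.69. Nog (noggin) did not pass the test, at 0.12 with a 95% interval from -0.26 to 0.50, and it was 0.53 in run 1 and -0.28 in run 2. Id2 was at 0.37 (interval 0.01 to 0.74, limma adjusted p = 0.194), with controls from 9.09 to 9.82 and BMP4 arrays at 10.04 and 9.74, so that the groups overlapped.

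Ligands, receptors and transducers gave fewer calls. Of 28 measured, 7 rose and 4 fell, against 7.02% and 7.59% of all genes, with a median of 0.12. Bmp4 itself read 7.10 to 7.73 in the controls and 8.30 and 8.83 with BMP4, a rise of 1.22 (SE 0.18, limma adjusted p = 0.000558). The ligand gene Bmp5 (1.05), the receptor gene Neo1 (0.75), the ubiquitin ligase gene Smurf2 (0.58), Gdf11 (0.50), the co-receptor gene Eng (0.50) and the protease gene Bmp1 (0.38) rose too. Rgmb, a BMP co-receptor, fell by 1.09 from 8.94 to 9.06 in the controls to 7.80 and 8.01, and Smad3, Smurf1 and Acvr2a fell by 0.57, 0.56 and 0.55. Without BMP4 replicate 1 the list had 2 lowered members.

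Of the receptor and SMAD genes, Smad9 rose and Acvr2a and Smad3 fell, as given above, and 6 others that carry the signal were not called. Intervals (95%) ran from -0.38 to 0.00 for the type I receptor Bmpr1a, from -0.32 to 0.06 for the type II receptor Bmpr2 and from -0.17 to 0.34 for the type I receptor Acvr1. They ran from -0.08 to 0.44 for Smad1, from -0.15 to 0.25 for Smad5 and from -0.20 to 0.12 for Smad4. Changes of 1 or more in either direction lie outside all 6 intervals.

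**Figure D1:**
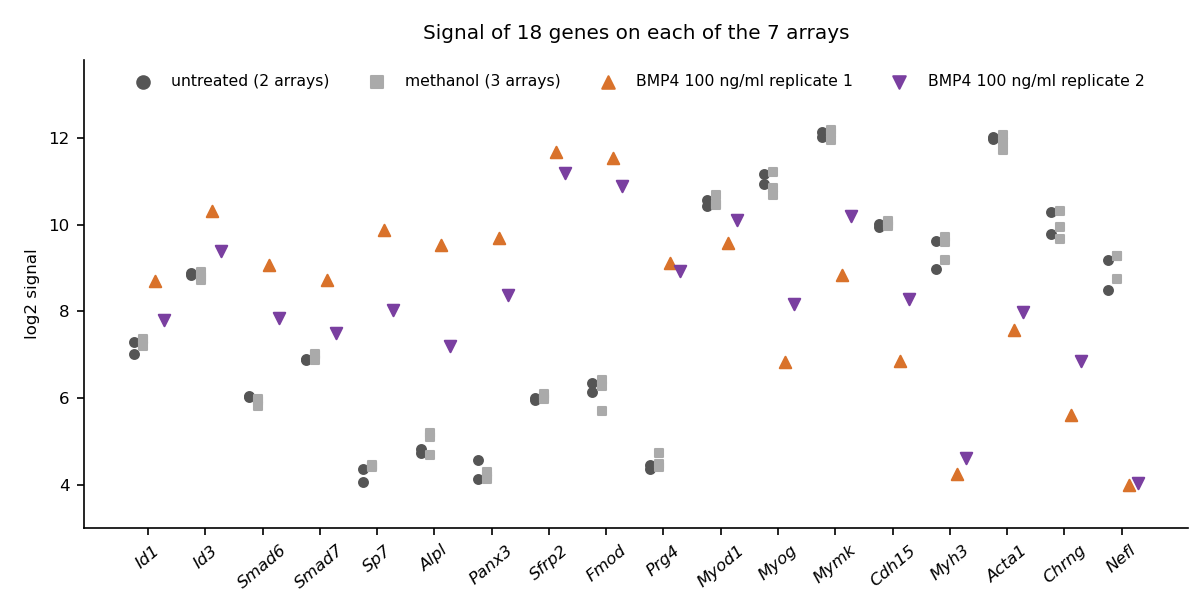
Log2 signal (vertical axis) of 18 genes (horizontal axis) on each of the 7 arrays: dark circles are untreated, grey squares methanol, and triangles the 2 BMP4 arrays. For Id1, Id3, Smad7, Alpl and Cdh15 the upward triangle of replicate 1 stands farther from the controls than the downward triangle of replicate 2, while for Sfrp2, Prg4 and Nefl the triangles lie close together.

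Osteoblast genes rose. Of 24 measured, 14 rose and 3 fell, against 7.02% and 7.59% of all genes, and the median was 0.87. Sp7 (osterix), the transcription factor that osteoblasts require, read 4.06 and 4.37 untreated, 4.40, 4.45 and 4.43 with methanol, and 9.87 and 8.03 with BMP4. The difference was 4.61 (SE 0.35, limma adjusted p = 4.62e-06), 24.4-fold. Panx3, a channel protein of osteoblasts and chondrocytes, read 4.58 and 4.14 untreated, 4.20, 4.28 and 4.13 with methanol, and 9.69 and 8.38 with BMP4, a difference of 4.77 (SE 0.27, limma adjusted p = 5.25e-07). The 5 controls of both genes lay within 0.45 of each other and the BMP4 arrays were several units above.

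Alpl, the alkaline phosphatase whose activity is the usual readout of this conversion, read 4.72 and 4.81 untreated, 5.10, 5.18 and 4.68 with methanol, and 9.53 and 7.19 with BMP4. Its difference of 3.46 (SE 0.44, limma adjusted p = 0.000222) was 2.29 without BMP4 replicate 1. Further rises were Omd (3.71), Kazald1 (1.89), the parathyroid hormone receptor gene Pth1r (1.69), Bglap (osteocalcin, 1.59), Phex (1.54), the type I collagen genes Col1a2 (1.41) and Col1a1 (1.38), the vitamin D receptor gene Vdr (1.39) and Tnfrsf11b (osteoprotegerin, 0.99). Bglap has near-identical copies in the mouse genome that its probes could also read. It went from 4.82 to 5.30 in the controls to 6.81 and 6.46.

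Ibsp (bone sialoprotein) was at -0.29 (interval -0.64 to 0.07), with BMP4 arrays at 3.84 and 3.57 and controls from 3.71 to 4.22. Dmp1, a gene of osteocytes, fell by 0.69, and Ank and Slc20a1, which move pyrophosphate and phosphate across the membrane, fell by 0.56 and 0.47. Mepe (0.30) and Ifitm5 (0.41) were not called. Runx2 and Spp1 had no probe set of their own and were not analysed here.

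Of 24 chondrocyte genes, 4 rose and 1 fell (20.8% called in either direction), with a median of 0.12. Over all genes tested 7.02% were raised and a further 7.59% lowered. Prg4 (lubricin), the lubricant of the joint surface, went from 4.37 to 4.73 in the controls to 9.12 and 8.94, a rise of 4.54 (SE 0.13, limma adjusted p = 4.38e-09). Col2a1, the cartilage collagen, rose by 1.16 but read 7.73 in replicate 1 and 6.36 in replicate 2, against 5.68 to 6.15 in the controls, and without BMP4 replicate 1 it differed by 0.47 (limma adjusted p = 0.155). Matn2 (0.90) and Col11a1 (0.81) rose as well. Sox9, the factor that specifies chondrocytes, fell by 0.33 from 9.86 to 9.99 to 9.72 and 9.48, a call lost without BMP4 replicate 2 or methanol replicate 2 (-0.21, limma adjusted p = 0.186, and -0.31, limma adjusted p = 0.0522). Acan (aggrecan) was at 0.13, with a 95% interval from -0.19 to 0.44.

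Of 16 adipocyte genes, 4 rose and 1 fell (31.2% called), with a median of 0.12. Over all genes tested 7.02% were raised and 7.59% lowered. Fabp4, a fatty acid carrier of fat cells, read 2.89 to 3.31 in the controls and 7.24 and 5.79 with BMP4 (3.38, SE 0.29, limma adjusted p = 1.13e-05). Lpl (1.40), Pparg (1.02), the master regulator of fat cells, and Cebpd (0.78) rose, and Cd36, a fatty acid transporter, fell by 1.10. Adipoq (adiponectin), Lep and Plin1, genes of mature fat cells, were at 0.12, -0.12 and -0.04 and were not called.

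Small leucine-rich proteoglycans, which bind collagen fibrils, had a median of 1.04. They were raised in 8 of 14 cases and lowered in none, against 7.02% and 7.59% of all genes. Fmod (fibromodulin) read 6.34 and 6.13 untreated, 6.42, 5.70 and 6.28 with methanol, and 11.54 and 10.90 with BMP4, a rise of 5.04 (SE 0.20, limma adjusted p = 3.96e-08), 33.0-fold. Aspn (asporin, 3.85), Omd (osteomodulin, 3.71), Prelp (2.93), Ecm2 (1.58), Ogn (osteoglycin, 1.26), Dcn (decorin, 1.08) and Lum (lumican, 1.0) rose with it. Bgn (biglycan) was at 0.22 and Epyc at -0.03, and neither passed the test.

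Of 32 other matrix genes 19 rose and none fell, against 7.02% and 7.59% of all genes, with a median of 0.61. Postn (periostin), a matricellular protein of bone and tendon, read 7.27 to 8.00 in the controls and 10.36 and 10.83 with BMP4 (2.98, SE 0.18, limma adjusted p = 8.25e-07). Col12a1 (2.53), the microfibril genes Mfap5 (2.43) and Mfap2 (1.34), all 3 type VI collagen genes (Col6a2 1.29, Col6a1 1.05, Col6a3 0.91) and Lox (1.17), which crosslinks collagen, rose. Col3a1 was not called, at 0.06 with a 95% interval from -0.14 to 0.25, and Fn1 (fibronectin) was at 0.16. Without BMP4 replicate 2, 3 of the 32 genes were lowered.

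**Figure D2:**
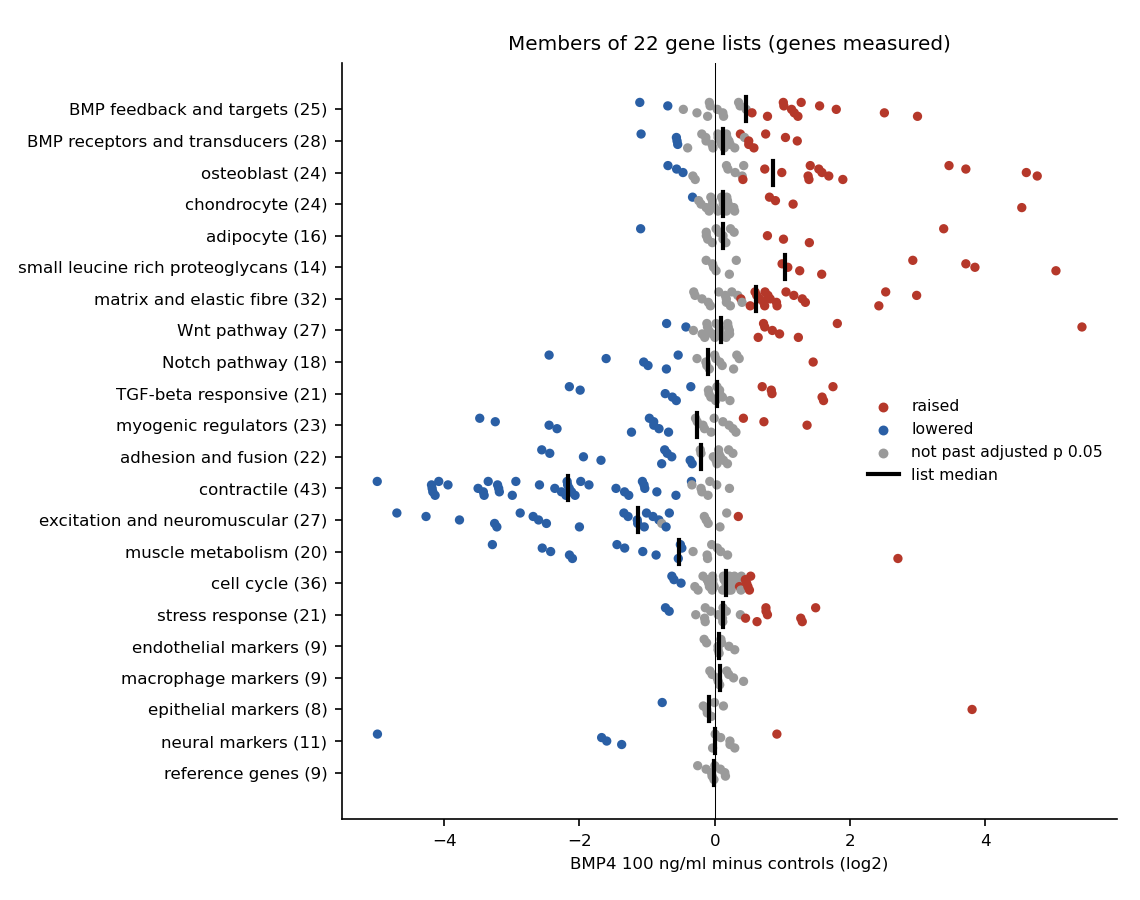
Difference of each measured member of 22 gene lists between BMP4 100 ng/ml and the 5 controls (horizontal axis, log2), 1 line per list with the number of measured genes, red for raised, blue for lowered, grey for not past the threshold, and a black bar at the list median. The contractile list has 36 of 43 members lowered and the median at -2.17, while the osteoblast and proteoglycan lists have medians of 0.87 and 1.04.

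Muscle genes fell in every functional class that was listed. Among regulators, 10 of 23 measured fell and 3 rose, against 7.59% and 7.02% of all genes, with a median of -0.26. Myog read 11.17 and 10.94 untreated, 11.22, 10.85 and 10.69 with methanol, and 6.83 and 8.17 with BMP4, a fall of 3.47 (SE 0.27, limma adjusted p = 5.35e-06), 11.1-fold. Rbm24, an RNA-binding protein of muscle, fell by 3.24, Heyl by 2.45, Vgll2, a cofactor of TEAD factors, by 2.33, Hes6 by 1.23, and the MEF2 genes Mef2a and Mef2c by 0.97 and 0.90.

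The factors that act before myogenin had smaller differences. Myod1 read 10.57 and 10.43 untreated, 10.69, 10.46 and 10.48 with methanol, and 9.58 and 10.10 with BMP4, a fall of 0.68 (SE 0.12, limma adjusted p = 0.00272) that was 0.35 in run 2 and 1.05 in run 1. Without BMP4 replicate 1 Myod1 was at -0.42 (limma adjusted p = 0.0296). Myf5, which marks early myoblasts, was at -0.15 with a 95% interval from -0.36 to 0.06, and Pax7, the factor of muscle stem cells, at -0.28 (limma adjusted p = 0.0852). Pax7 passed with a term for the run (limma adjusted p = 0.0296) or with median centring (limma adjusted p = 0.0469). Myf6 (MRF4), the remaining factor of the MyoD family, went the other way, from 6.01 to 6.20 in the controls to 6.71 and 7.02, a rise of 0.73 (SE 0.12, limma adjusted p = 0.00118). Eya4 (1.36) and Eya1 (0.42), transcriptional cofactors active in muscle development, rose as well.

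Of 22 genes of adhesion and fusion 10 fell and none rose, against 7.59% and 7.02% of all genes, with a median of -0.21. Mymk (myomaker), a membrane protein needed for myoblasts to fuse, went from 11.94 to 12.18 in the controls to 8.84 and 10.21, a fall of 2.56 (SE 0.25, limma adjusted p = 3.41e-05). Its partner Mymx (myomixer) fell by 1.68. Cdh15 (M-cadherin) read 9.95 to 10.08 in the controls and 6.85 and 8.28 with BMP4, so that it fell by 2.44, and Itga7, the laminin receptor of muscle, fell by 1.94. Ncam1 fell by 0.33, a call lost without BMP4 replicate 1 (-0.27, limma adjusted p = 0.123), and Cdh2 (N-cadherin, -0.20) and Itgb1 (-0.02) were not called.

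Contractile genes showed the largest list median, at -2.17, with 36 of 43 lowered and none raised, against 7.59% and 7.02% of all genes. Myh3, the embryonic myosin heavy chain, read 9.63 and 8.98 untreated, 9.71, 9.60 and 9.19 with methanol, and 4.25 and 4.62 with BMP4, a fall of 4.99 (SE 0.19, limma adjusted p = 3.3e-08), 31.8-fold. Acta1 read 12.03 and 11.97 untreated, 12.08, 11.92 and 11.73 with methanol, and 7.56 and 7.98 with BMP4, a fall of 4.18 (SE 0.12, limma adjusted p = 4.38e-09). The BMP4 arrays of both genes lay more than 3 below every control and close to each other. Troponins Tnnc1 (-4.19), Tnnt3 (-4.17) and Tnnt2 (-3.50), the myosin light chain gene Mylpf (-4.13), the Z-disc gene Myoz2 (-4.08), Actc1 (-3.94), Neb (nebulin, -3.42) and Ttn (titin, -3.41) fell with them. The intermediate filament gene Des fell by only 0.57 and Tpm1 by 0.34, and Myh2, Myl2, Myl3, Tcap, Tpm3, Ldb3 and Myoz1 did not pass the test.

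Of 27 genes of excitation, calcium handling and the neuromuscular junction 20 fell and 1 rose, against 7.59% and 7.02% of all genes. The list median was -1.14. Casq2, which stores calcium in the sarcoplasmic reticulum, went from 9.05 to 9.54 in the controls to 4.55 and 4.64, a fall of 4.70 (SE 0.14, limma adjusted p = 7.4e-09). Among acetylcholine receptor subunits, Chrnd (-4.27), Chrng (-3.77) and Chrnb1 (-2.68) fell by more than Chrna1 (-0.72), and Chrne was at -0.10 and not called. Chrng read 10.29 and 9.79 untreated, 10.32, 9.94 and 9.68 with methanol, and 5.61 and 6.85 with BMP4. The calcium pump gene Atp2a1 fell by 3.25 and the release channel gene Ryr1 by 2.88. Musk, the receptor kinase of the junction, was the 1 gene raised (0.35), a call lost without either BMP4 array. It was also lost with only the untreated or only the methanol arrays as controls.

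Among 20 genes of muscle metabolism 12 fell and 1 rose, against 7.59% and 7.02% of all genes, with a median of -0.52. Pygm, the muscle glycogen phosphorylase (-3.29), Cox8b (-2.55), Ckm, the muscle creatine kinase (-2.15), and Mb, myoglobin (-2.10), fell most among the genes named here. Car3, a carbonic anhydrase of slow muscle and fat, was the exception, with 8.24 and 8.47 untreated, 8.36, 8.43 and 8.50 with methanol, and 10.89 and 11.33 with BMP4, a rise of 2.71 (SE 0.12, limma adjusted p = 5.57e-08). For genes with several probe sets the size can depend on the choice: with the mean of their probe sets Ryr1 and Ckm differed by -1.68 and -1.26.

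Motifs were counted in the RefSeq windows of the tested genes, of which 16918 had at least 1 (20520 windows). CAGCTG, which is 1 form of CANNTG and reads the same on both strands, was in 28% of the windows of genes lowered by at least 1 (106 of 379), in 13.9% of those of genes raised by at least 1 (33 of 238) and in 16.2% of all. CANNTG in any form was in 76.5%, 65.5% and 69.1%, and the MEF2 motif in 5.01%, 1.26% and 3.63%. GTCTG was in 51.7% of lowered, 51.3% of raised and 48.5% of all windows, GGCGCC in 15.8%, 20.6% and 15.5%, TGTGGT (Runx) in 16.4%, 9.66% and 14.5%, and TATAAA in 14.2%, 16.8% and 12.3%. Over all called genes, CAGCTG was in 19.9% of the windows of lowered genes and 16.1% of those of raised ones, CANNTG in 69.3% and 63.5%, and TGTGGT in 13.2% and 12.4%. The 379 windows of lowered genes came from 284 genes and the 238 of raised ones from 202. A gene with several windows therefore counted more than once. The shares are descriptions of letters in short windows and were not tested.

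In the Wnt pathway 8 of 27 genes rose and 2 fell, against 7.02% and 7.59% of all genes, with a median of 0.09. Sfrp2, a secreted protein that binds Wnt ligands, had the largest rise of all genes tested when its brighter probe set stood for it, from 6.01 and 5.96 untreated and 6.10, 6.03 and 5.97 with methanol to 11.68 and 11.20 with BMP4 (5.43, SE 0.12, limma adjusted p = 1.2e-09), 43.1-fold. With the mean of its 2 probe sets the rise was 3.10, below those of Fmod, Panx3, Sp7 and Prg4. Nkd2 (1.81), Sfrp4 (1.24), Dkk3 (0.85), Sfrp1 (0.72) and Notum (0.64), known as inhibitors or relatives of inhibitors, rose, and so did Wnt10b (0.96) and Rspo2 (0.74), which activate the pathway. Wnt10a fell by 0.71 and Dkk2 by 0.43, and the list had 1 lowered member without BMP4 replicate 1, BMP4 replicate 2, methanol replicate 2 or methanol replicate 3. Axin2 and Lef1, targets of beta-catenin, were at -0.03 and -0.11 with 95% intervals from -0.38 to 0.31 and from -0.32 to 0.11, and Dkk1 was at 0.00 (interval -0.40 to 0.41).

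Of 18 Notch pathway genes 6 fell and 1 rose, against 7.59% and 7.02% of all genes, with a median of -0.10. Notch1 read 8.82 to 9.06 in the controls and 7.70 and 8.09 with BMP4 (-1.05, SE 0.11, limma adjusted p = 5.48e-05). The ligand genes Jag2 and Dll1 fell by 1.61 and 0.99, the receptor gene Notch3 by 0.71 and the target gene Heyl by 2.45. Hes1 fell by 0.54, but it was at -0.18 (limma adjusted p = 0.427) without BMP4 replicate 1 and at -0.90 without BMP4 replicate 2. Leaving out methanol replicate 1, 2 or 3 or untreated replicate 2 also ended the call of Hes1 (limma adjusted p = 0.0586 to 0.0694). Lfng, which modifies Notch receptors, rose by 1.46, and 3 genes of the list rose without BMP4 replicate 2.

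Of 21 TGF-beta responsive genes 6 rose and 6 fell, against 7.02% and 7.59% of all genes, with a median of 0.03. Cnn1 (1.75), Tgfbi (1.61) and Ccn2 (1.59) rose, Ccn2 from 8.89 to 9.13 in the controls to 10.31 and 10.89. Ankrd1 fell by 2.15, from 11.41 to 11.59 in the controls to 8.61 and 10.11, and without BMP4 replicate 1 by 1.40. Angptl4 fell by 1.99, Pmepa1 by 0.73 and the receptor gene Tgfbr2 by 0.63.

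Cell cycle genes moved by small amounts. Of 36 measured 6 rose (Aurkb, Rrm2, Ccnb2, Mki67, Birc5 and E2f1, by 0.37 to 0.53) and 3 fell, with a median of 0.17. The shares over all genes tested were 7.02% raised and 7.59% lowered. The falls were in Ccnd3 (-0.63), Cdkn1a (p21, -0.60) and Ccnd2 (-0.50), and Cdkn1a, a cyclin-dependent kinase inhibitor that goes up when myoblasts leave the cycle, read 12.23 to 12.32 in the controls and 11.64 and 11.72 with BMP4. The count of raised members was 11 without BMP4 replicate 1, 3 without BMP4 replicate 2 and 15 with a term for the run. Mki67 rose by 0.47 (controls 9.52 to 9.81, BMP4 9.91 and 10.32), and was at 0.27 (limma adjusted p = 0.218) without BMP4 replicate 2. Ccnd1 was at -0.25 (limma adjusted p = 0.247) and at -0.49 (limma adjusted p = 0.0136) without that array.

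Of 21 stress genes 8 rose and 2 fell, against 7.02% and 7.59% of all genes, with a median of 0.12. Nqo1 (1.49), Chac1 (1.29), Slc7a11 (1.27), Trib3 (0.78), Sesn2 (0.76), Asns (0.76), Ddit3 (0.63) and Hmox1 (0.46) rose, and Atf3 fell by 0.73 and Txnrd1 by 0.67. Ddit3 was not called without BMP4 replicate 1 (0.53, limma adjusted p = 0.0516). The heat shock gene Hspa1a (0.17) and the endoplasmic reticulum chaperone gene Hspa5 (-0.28) were not called.

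Of 8 epithelial markers 1 rose and 1 fell, and of 11 neural markers 1 rose and 4 fell. The shares over all genes tested were 7.02% raised and 7.59% lowered. Krt14, a keratin of basal epithelium, read 5.28 and 4.99 untreated, 5.14, 5.40 and 5.28 with methanol, and 9.61 and 8.43 with BMP4 (3.80, SE 0.24, limma adjusted p = 1.32e-06). Krt19, a keratin of simple epithelium, fell by 0.78, from 6.90 to 7.18 in the controls to 6.45 and 6.06 (limma adjusted p = 0.00137). The defining epithelial markers Epcam (-0.17), Cdh1 (-0.11), Krt8 (-0.12) and Krt18 (0.13) were not called, and the means of the 8 measured markers were 5.15 to 5.29 in the controls and 5.70 and 5.43 with BMP4. Nefl, the light neurofilament chain, read 8.50 and 9.18 untreated, 8.74, 9.28 and 9.28 with methanol, and 3.98 and 4.04 with BMP4 (-4.99, SE 0.20, limma adjusted p = 3.96e-08). Map2, Gap43 and Nefm fell by 1.67, 1.60 and 1.38 and Stmn2 rose by 0.92, whereas Tubb3 (-0.03), Snap25 (0.22) and Rbfox3 (0.09), markers of neurons, were not called. The means of the 11 neural markers were 6.93 to 7.04 in the controls and 6.28 and 6.23 with BMP4.

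The size of the BMP4 difference was then compared between the runs. Each run holds 1 BMP4 array, so the spread of that array is taken from the controls, and with 1 such array a run the run and the well cannot be told apart. The difference between runs passed for 204 genes (0.92%) at a limma adjusted p under 0.05, where 1863 genes had an unadjusted p under 0.05. With no trend in the moderation 9 passed: Alox5, Cilp, Dlx2, Hey1, Kazald1, Krt16, Map3k7cl, Mest and Pdlim3. Of the 204, 45 were raised by BMP4, 42 of them more in run 1, and 115 were lowered, 114 of them more in run 1. Over all 3242 called genes the difference was larger in run 1 for 2219 (68.4%), and the median ratio of run 2 to run 1 was 0.82, and 0.51 among called genes that differed between runs.

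Some of the pathway's own target genes were among those that differed. In run 1 and run 2 the BMP4 difference was 1.53 and 0.52 for Id1 (limma adjusted p = 0.0259 for the difference between runs), 1.51 and 0.54 for Id3 (limma adjusted p = 0.00324), 3.07 and 1.93 for Smad6 (limma adjusted p = 0.0108) and 1.76 and 0.58 for Smad7 (limma adjusted p = 0.00307). It was 5.64 and 3.61 for Sp7, 4.62 and 2.30 for Alpl, 2.74 and 0.85 for Dlx2 and 1.93 and 0.49 for Dlx5. Other targets did not pass, among them Chrdl1 (3.05 and 2.91), Bambi (1.37 and 0.86), Msx2 (0.61 and 0.46) and Id2 (0.81 and 0.04). Of the genes in this paragraph only Dlx2 also passed with no trend in the moderation. Of the muscle genes, Myog fell by 4.36 and 2.66, Cdh15 by 3.16 and 1.72, Mymk by 3.32 and 1.82, Chrng by 4.69 and 2.95 and Ttn by 4.28 and 2.53.

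Other large movers had like values in both runs. Sfrp2 was at 5.63 and 5.21, Fmod at 5.16 and 4.86, Prg4 at 4.65 and 4.44, Casq2 at -4.87 and -4.57 and Tnnc1 at -4.40 and -4.08, and none of these differences between runs passed. Postn (2.64 and 3.29), Car3 (2.59 and 2.86), Mfap5 (2.27 and 2.56) and Nefl (-4.63 and -5.21) were larger in run 2, again without passing. A p that misses the threshold does not show that the runs were equal. Of the 44 genes that differed between runs without being called for BMP4, 34 had opposite signs. Hey1, a target of both Notch and BMP signalling, was the clearest of the list members: controls lay between 9.79 and 9.93, BMP4 replicate 1 at 10.74 and replicate 2 at 8.84 (0.85 and -1.02, limma adjusted p = 1.39e-05).

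**Figure D3:**
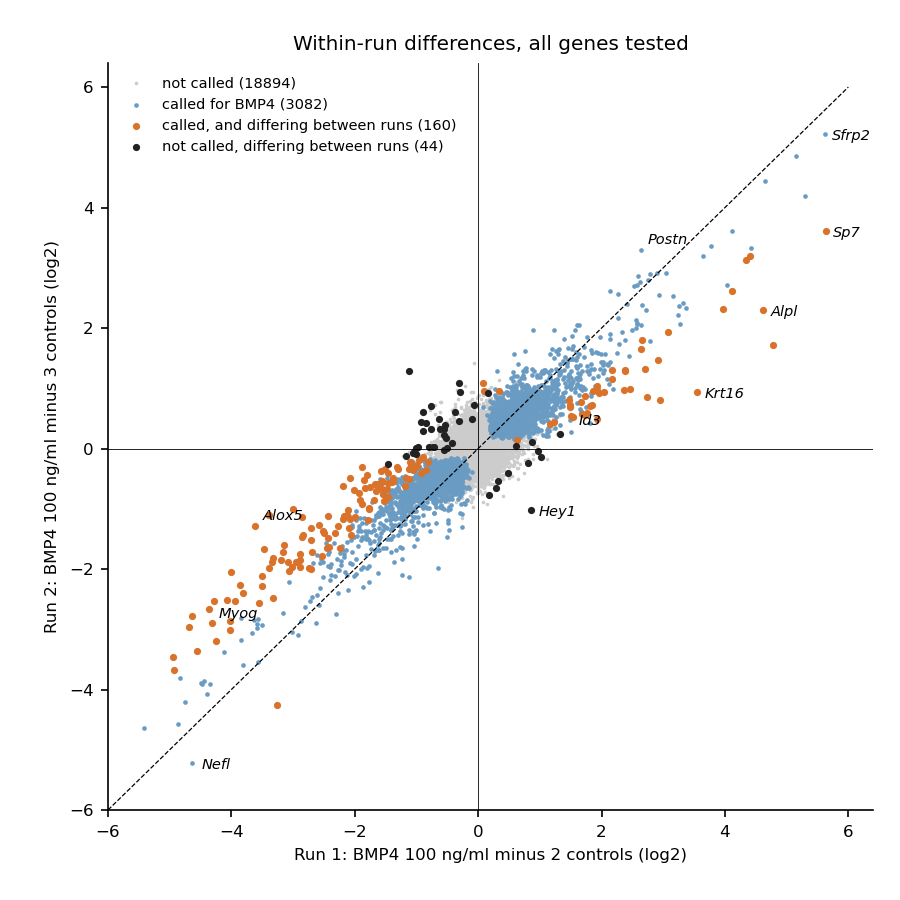
BMP4 difference within run 1 (horizontal axis, 1 BMP4 array minus 2 controls, log2) and within run 2 (vertical axis, 1 BMP4 array minus 3 controls, log2) for all 22180 genes tested, with the dashed line marking equal values. Orange points, the 160 called genes that differed between runs, lie mostly between the dashed line and the horizontal axis, on the side of larger differences in run 1, and black points are the 44 genes that differed without being called.

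**Figure D4:**
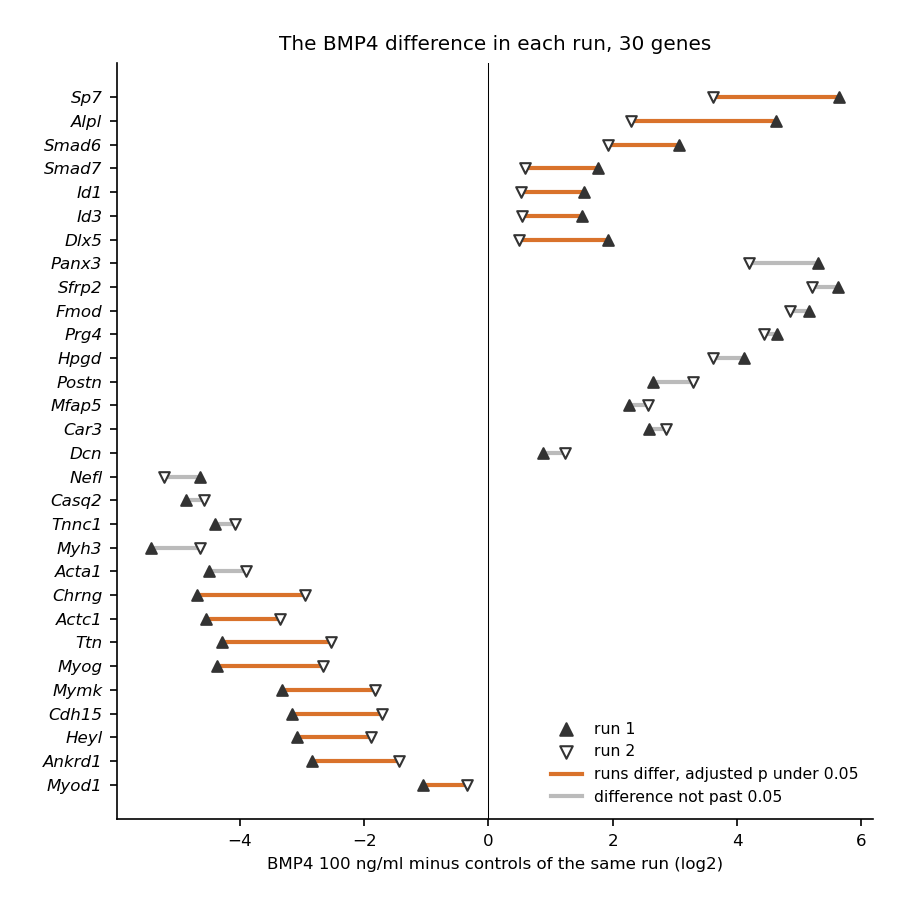
BMP4 difference (horizontal axis, log2) in run 1 (filled upward triangles) and in run 2 (open downward triangles) for 30 genes, joined in orange where the runs differ at an adjusted p under 0.05 and in grey where they do not. Alpl spans 2.30 to 4.62 and Myog -4.36 to -2.66, whereas Prg4 spans 4.44 to 4.65.

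Arrays at other doses bear on the same genes. Within run 2, the step from 10 to 300 ng/ml uses no array of the present comparison. The sign of this step was compared with the sign of run 1 minus run 2 in the BMP4 difference. Among the 160 called genes that differed between runs, the signs were the same for 158 (98.8%). They were the same for 82.4% of the 692 called genes with a difference of at least 1. The share was 70.5% of all called genes and 56.4% of all genes tested. The absolute step had a median of 2.04 in those 160 genes and of 1.32 in the 692. Of the 160, 42 of 45 raised and 114 of 115 lowered genes had the larger difference in run 1. For these the sign of run 1 minus run 2 is that of the BMP4 difference itself. The signs then match wherever a gene responds more at 300 than at 10 ng/ml. The high share follows largely from this and is no separate check of the difference between runs.

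Values at 10, 100 and 300 ng/ml are given side by side without a test, and the array of 300 ng/ml replicate 1 was labelled by another method (Affyexpress). Sp7 read 5.76 and 4.65 at 10 ng/ml, 9.87 and 8.03 at 100 and 10.43 and 10.40 at 300. Panx3 read 4.59 and 4.33 at 10 ng/ml, near its controls, then 9.69 and 8.38 at 100 and 9.95 and 10.27 at 300. Alpl read 5.24 and 5.02, then 9.53 and 7.19, then 10.33 and 10.33. For these 3 osteoblast genes the array of 100 ng/ml replicate 2 lay between those of the neighbouring doses, and replicate 1 lay near those of 300 ng/ml.

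Muscle genes differed in how far they lay from their controls at the lowest dose. Myog was at 10.87 and 11.30 with 10 ng/ml, inside or just above its control range, at 6.83 and 8.17 with 100, and at 6.64 and 5.94 with 300. Acta1 was at 11.28 and 11.50 with 10 ng/ml, a little below its controls, at 7.56 and 7.98 with 100, and at 6.70 and 7.15 with 300. Ankrd2, a stretch-responsive ankyrin repeat gene, was already at 6.39 and 6.76 with 10 ng/ml, against 8.48 to 9.33 in the controls, and at 4.42 and 4.93 with 100 and 4.57 and 4.65 with 300. The mean differences at 10, 100 and 300 ng/ml were -1.32, -4.08 and -3.93 for Myoz2 and -1.22, -4.70 and -4.80 for Casq2.

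The pathway targets differed between the 2 arrays of 10 ng/ml as well, of which replicate 1 lay in run 1 and replicate 2 in run 2. Id1 read 9.04 and 7.04 at 10 ng/ml, 8.71 and 7.80 at 100 and 8.46 and 8.24 at 300, so that the highest of its BMP4 arrays was that of run 1 at the lowest dose. Id3 read 10.08 and 8.82 at 10 ng/ml, Smad6 7.91 and 6.57, and Smad7 7.5 and 6.5. For all 4 genes the array of run 1 was the higher at 10 and at 100 ng/ml, and replicate 2 at 10 ng/ml lay within or below the range of the controls for Id1, Id3 and Smad7.

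Other genes were already far from their controls at the lowest dose. Car3 read 11.35 and 10.89 at 10 ng/ml, 10.89 and 11.33 at 100 and 10.68 and 11.02 at 300, which overlap across all 3 doses. Nefl read 5.22 and 5.25 at 10 ng/ml, 3.98 and 4.04 at 100 and 4.26 and 4.0 at 300. Sfrp2 read 9.89 and 8.40, then 11.68 and 11.20, then 11.59 and 11.57. Phex, an endopeptidase of osteoblasts and osteocytes, read 8.15 and 6.72 at 10 ng/ml, 6.96 and 7.36 at 100 and 6.12 and 6.55 at 300, so that the highest array was at the lowest dose.

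**Figure D5:**
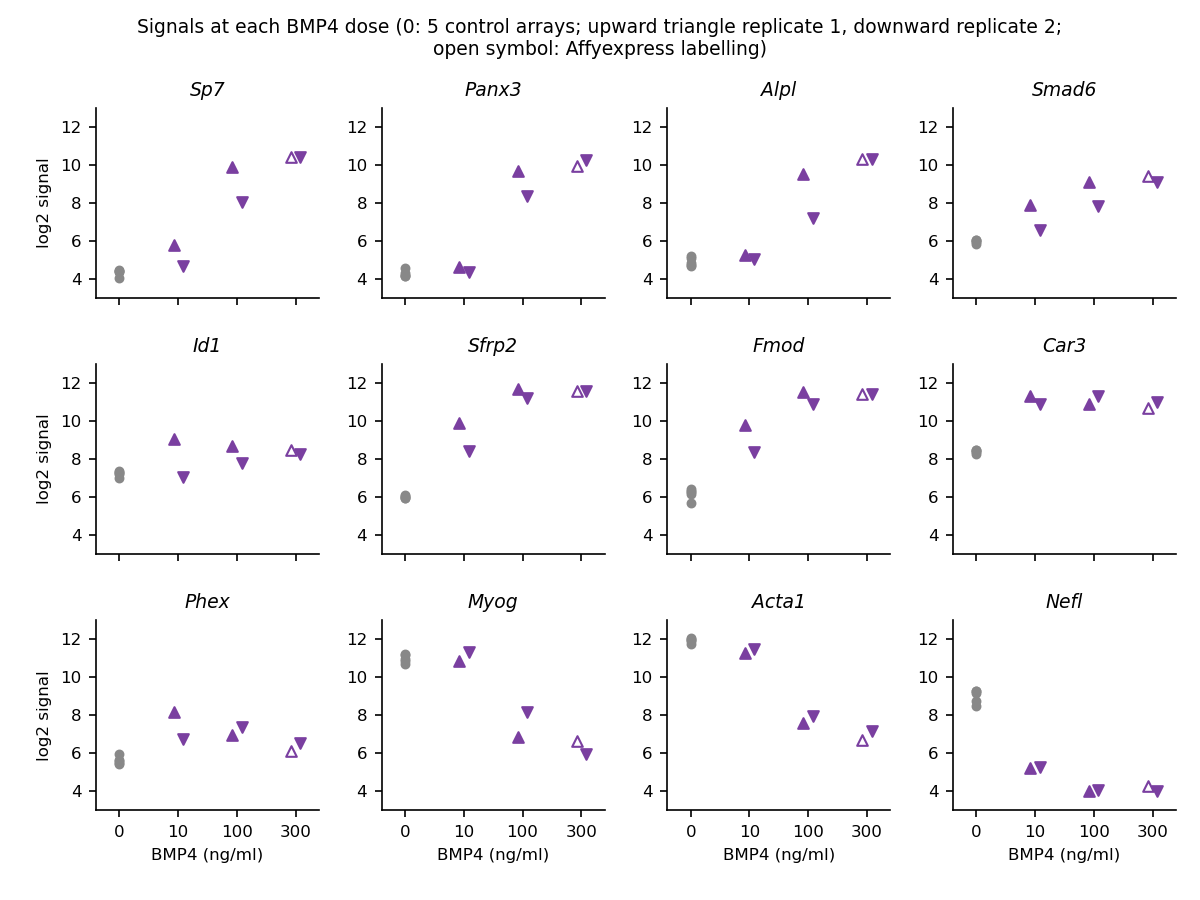
Log2 signal (vertical axes) of 12 genes in the 5 control arrays (0) and at 10, 100 and 300 ng/ml BMP4 (horizontal axes, not to scale), with upward triangles for replicate 1, downward for replicate 2 and an open symbol for the Affyexpress array. Panx3, Alpl, Myog and Acta1 lie near their controls at 10 ng/ml and far from them at 100, whereas Car3 and Nefl lie far from theirs at every dose.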

How the data were processed

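Total RNA of C2C12 cells was measured on Affymetrix mouse gene arrays. The deposited values are log2 signals per probe set, made by the authors with RMA in Partek 6.5 per the submitters' processing notes. Per the labels, 3 samples of the study were labelled by both methods as a basis for batch correction; whether a correction entered the deposited values is not stated there. Replicates were numbered in accession order.

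The values were used as deposited. Of 41345 probe sets 23521 carried 1 symbol, 1814 several and 16010 none in the platform annotation, whose symbols can be old. Each of 22180 genes was represented by its brightest probe set on average, chosen among several for 1082; of 306 further probe sets of called genes 242 had the same sign. Linear models were fitted with limma 3.58.1 in R 4.3.3, with 2 group means over 7 arrays (5 residual degrees of freedom, median prior 6.26, median SE 0.133) and a trend on mean signal. The difference between runs used 4 means (3 residual degrees of freedom). The steps were tested on simulated data with independent noise and no shift of the controls between runs. The arrays here did separate by run, so the simulation does not check the fits on such data. The number of arrays limits the precision, and 95% intervals are not adjusted for the number of genes.

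Genes named are the 12 largest rises and falls that passed with both BMP4 arrays beyond all controls and the same sign in both runs, core genes of 22 lists (497 entries, 467 measured), the 2 largest called members of each list, and further members in the account of their list. Members and lists were chosen with earlier results of these data known. Promoters and mature microRNAs are RefSeq's, on GRCm38.p6, matched by Entrez gene identifier. Among the fits, arrays of the 3 compounds entered only the alternative over all 20 arrays. The choice of the brightest probe set used the mean over all 20 arrays.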

Additional observations from a re-analysis of the deposited data

Results flagged for a closer look

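The BMP4 difference was not the same in the 2 runs for 24 of the 110 genes chosen by the naming rule, by the limma test of the difference itself at an adjusted p under 0.05. For raised genes run 2 minus run 1 was -2.32 for Alpl, -2.02 for Sp7, -1.43 for Dlx5, -1.21 for Omd, -1.20 for Krt14, -1.18 for Smad7, -1.15 for Smad6, -1.11 for Col2a1, -1.01 for Id1 and -0.97 for Id3. For lowered genes it was 1.76 for Ttn, 1.74 for Chrng, 1.70 for Myog, 1.503 for Mymk, 1.48 for Tmem182, 1.45 for Cdh15, 1.40 for Ankrd1, 1.38 for Mb, 1.25 for Chrnd, 1.22 for Ryr1, 1.19 for Heyl, 1.19 for Actc1, 1.004 for Tnnt2 and 0.70 for Myod1. In all of them the difference was larger in run 1. None of these 24 passed with no trend in the moderation.

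One control array stood away from the other 4 for 5 of the named genes, where chance alone gives about 1 in 20 such groups. Untreated replicate 1 read 4.065 for Sp7 (nearest control 4.372) and 8.04 for Pax7 (nearest 7.824). Untreated replicate 2 read 6.006 for Myf6 (nearest 6.146). Methanol replicate 3 read 4.774 for Msx2 (nearest 5.092) and 11.36 for Tnnt2 (nearest 11.62).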

How the results depend on the processing

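With the 2 untreated arrays as the only controls, 704 genes were raised and 675 lowered; the cause was not tested. Leaving out 1 array at a time gave 1022 to 1555 raised and 1079 to 1713 lowered genes, the lowest of both without BMP4 replicate 1. The single BMP4 array left in such a fit is assumed to vary like the controls. The other 8 settings gave 1150 to 2230 raised and 1307 to 2369 lowered genes, the highest with a term for the run. Methanol minus untreated gave 0 called genes under all 7 alternatives. The difference between runs gave 9 genes with no trend, against 204, and 196 with the mean of probe sets; the cause was not tested. Of 110 named genes 83 were called, and 71 of these kept their call in all 16 alternatives where they were tested. The 12 others lost it at least once: Id1, Id3, Smad7, Dlx5, Msx2, Sox9, Col2a1, Myod1, Ncam1, Hes1, Mki67 and Ddit3. All but Id1 lost it with the untreated arrays alone, where 4 receptor and transducer genes, 5 Wnt genes, 5 stress genes, 2 chondrocyte and 2 cell cycle genes were raised. No called gene changed sign, and 14 of the 27 not called took the other sign somewhere without passing there. Id1 was not called in the fit over all 20 arrays (adjusted p = 0.134 in limma). The labels give no replicate numbers: no paired analysis was possible because the run holds several controls for 1 BMP4 array, and the term for the run stands in its place. The table used here gives no detection values, so how far low signals lie above background is unknown.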

Other observations

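The genes in this and the next paragraph belong to no list and were picked after their values were seen. Among rises, Lgr4 went from 7.79 to 8.04 in the controls to 10.63 and 10.26 (2.51) and Lgr6 from 6.59 to 6.85 to 9.36 and 8.40 (2.14), both receptors of R-spondins. The carbonic anhydrase genes Car8 (2.78) and Car2 (2.35) rose like Car3. Genes of some secreted signals rose, with Edn1 (endothelin-1) at 2.63, Apln (apelin) at 2.36, Fgf7 at 2.28, Penk (proenkephalin) at 2.22, Cxcl12 at 1.75 and Cxcl14 at 1.73, while the chemokine gene Cxcl13 fell (-2.67). Tnn (tenascin-W), a matrix protein of bone, read 10.32 in BMP4 replicate 1 and 7.22 in replicate 2, against 5.19 to 5.73 in the controls, the widest gap between the BMP4 arrays among the genes given here.

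Among falls, Erbb3, a neuregulin receptor, went from 8.29 to 8.77 in the controls to 4.62 and 4.96 (-3.71). The semaphorin genes Sema7a (-2.92), Sema5a (-2.89) and Sema6a (-2.83) fell, and so did Dusp4 (-2.33) and Dusp6 (-2.24), phosphatases of ERK that ERK signalling induces. Sprr1a fell by 3.80 and Msln (mesothelin) by 3.54, and Sprr1a was the 1 lowered gene that differed between runs with the larger fall in run 2 (-3.27 and -4.26). Klf5 (-3.05) fell too.

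Of 467 microRNA genes tested, 11 rose and 13 fell. The share called in either direction was 5.14%. This was smaller than over all genes tested, where 7.02% were raised and a further 7.59% lowered. The probe sets read RNA of the gene and not the mature microRNA. Mir133b, a muscle microRNA gene, read 8.12 to 8.62 in the controls and 4.56 and 6.31 with BMP4, a fall of 3.0 (SE 0.33, limma adjusted p = 8.37e-05). Mir532, Mir362 and Mir501, close together on chromosome X, fell by 2.12, 1.69 and 1.03. Mir181b-1 and Mir181b-2 lie on chromosomes 1 and 2 and encode the same mature 5′ sequence, but the first rose by 1.55 and the second fell by 0.80. Their shared product and the 3′ product of Mir133b are shown because the values turn on these 3 genes, with the seed (bases 2 to 8) in capitals.
miR-181b-5p: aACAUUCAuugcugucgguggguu
miR-133b-3p: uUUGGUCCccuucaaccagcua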
